A study of Homo sapiens with 6 samples.

Results

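The genes described here are those of the NRF2 pathway and the enzymes that keep protein and glutathione thiols reduced. They were chosen by symbol from a list of 40 genes, and all 40 were found among the 26255 gene symbols with an FPKM value in each library (sequenced fragments per kilobase of transcript, scaled to the library's mapped fragments). Messenger RNA came from HCT116, an established human colorectal carcinoma line, in 3 libraries from ZsGreen-positive and 3 from ZsGreen-negative cells. By the series title, cells were transduced with a degron of ornithine decarboxylase. Such a degron, fused to the fluorescent protein ZsGreen, is degraded by the proteasome without ubiquitin, so that a cell with little proteasome activity stays bright. The labels name no drug, time point or clone, and do not say how the cells were sorted, whether the ZsGreen-negative cells carry the reporter or whether the libraries came from separate cultures. The p-values therefore measure the spread between these libraries alone, and that spread may be technical. Library titles follow one naming scheme in the ZsGreen-positive group and another in the ZsGreen-negative group; any batch along that line cannot be told apart from the groups.

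NRF2, encoded by NFE2L2, is a transcription factor that pairs with a small MAF protein and binds antioxidant response elements near genes of detoxification and thiol metabolism. KEAP1 holds NRF2 in a ubiquitin ligase complex that sends it to the proteasome, until electrophiles or oxidants modify cysteines of KEAP1 and NRF2 escapes. Glutathione and thioredoxin are the main carriers of reducing power in this system, and both are kept reduced by enzymes that draw on NADPH. In colorectal and other carcinoma cells, NRF2 target genes are best known for tolerance of oxidants and drugs.

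Summed FPKM per library was 1468235 to 1767785 in the ZsGreen-positive and 1814655 to 1840483 in the ZsGreen-negative libraries. Small RNA genes made up 64.7% to 67.0% of that sum in ZsGreen-positive and 65.9% to 66.4% in ZsGreen-negative libraries. From the steps between low values, the depth was estimated at 13100000 fragments for ZsGreen-positive replicate 1, and ZsGreen-negative libraries had 10170000 to 10680000. The estimates for ZsGreen-positive replicates 2 and 3 were set aside, because they rest on only 5 genes each. These libraries also stood apart in genes listed at 0 (11624 and 11989; replicate 1 of the same group had 10314, and the ZsGreen-negative libraries had 8985 to 9162). Of the epithelial markers, EPCAM was at 138 to 152 FPKM in ZsGreen-positive and 126 to 133 FPKM in ZsGreen-negative libraries. E-cadherin (CDH1) was lower, at 16.5 to 19.0 FPKM in ZsGreen-positive and 49.5 to 50.4 FPKM in ZsGreen-negative libraries (log2 fold change -1.47 ± 0.074), and so were the keratins KRT18 (-0.66 ± 0.078) and KRT8 (-0.40 ± 0.063). EPCAM (0.185 ± 0.0605) and CDX2 (0.54 ± 0.13), an intestinal transcription factor, were higher in ZsGreen-positive libraries, and KRT20 had overlapping groups (0.45 ± 0.26). CDX1, another intestinal transcription factor, was listed at 0 in every library and VIL1, which encodes villin of the brush border, was below 1 FPKM in each. Summed over 8 epithelial markers, mostly KRT8 and KRT18, FPKM was 2140 to 2436 in ZsGreen-positive and 3170 to 3231 in ZsGreen-negative libraries, and the part of this difference in the results was not tested. Over 11 markers of blood, stromal, endothelial and liver cells, summed FPKM was 1.50 to 5.15 in ZsGreen-positive and 4.13 to 4.50 in ZsGreen-negative libraries.

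Members differed in both directions, and the largest differences were falls in ZsGreen-positive cells. OSGIN1, GCLC, GCLM, SRXN1, TXNRD1, MAFF and NQO1 were the 7 members with the lowest log2 fold changes (-1.78 to -2.77). The members were not sorted into targets of NRF2 and other genes, so the counts do not describe its targets as a class. GSS, TXNRD2 and GPX4, enzymes of glutathione synthesis, mitochondrial thioredoxin and lipid peroxide removal, had the highest (1.16 to 1.31). Differences were tested with limma on log2(FPKM + 1) for 12213 genes whose mean reached 1 FPKM, with Benjamini-Hochberg adjustment and a threshold of 0.05, and each log2 fold change is ZsGreen-positive minus ZsGreen-negative on that scale, with its SE. Of the 40 members, 34 reached the filter; 16 of these fell, 14 rose and 4 did not pass. This stands beside 30.0% of all tested genes called lower and 29.4% called higher, 59.4% in all. The members were chosen with earlier results of these data known, so an excess over these shares is no evidence about the set. At a change of at least 2-fold, 9 members fell and 3 rose, where 8.34% and 9.48% of all tested genes were called lower and higher by that much. The median over the 34 members was -0.075 against 0.0040 over all tested genes. No overlap between the groups was seen for 16 members that were lower and 14 that were higher, the members with a call, while 67.6% of all tested genes had groups that did not overlap (34.5% lower and 33.2% higher). In bulk samples, fewer cells that express a gene and less of its RNA per cell cannot be told apart.

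**Figure D1:**
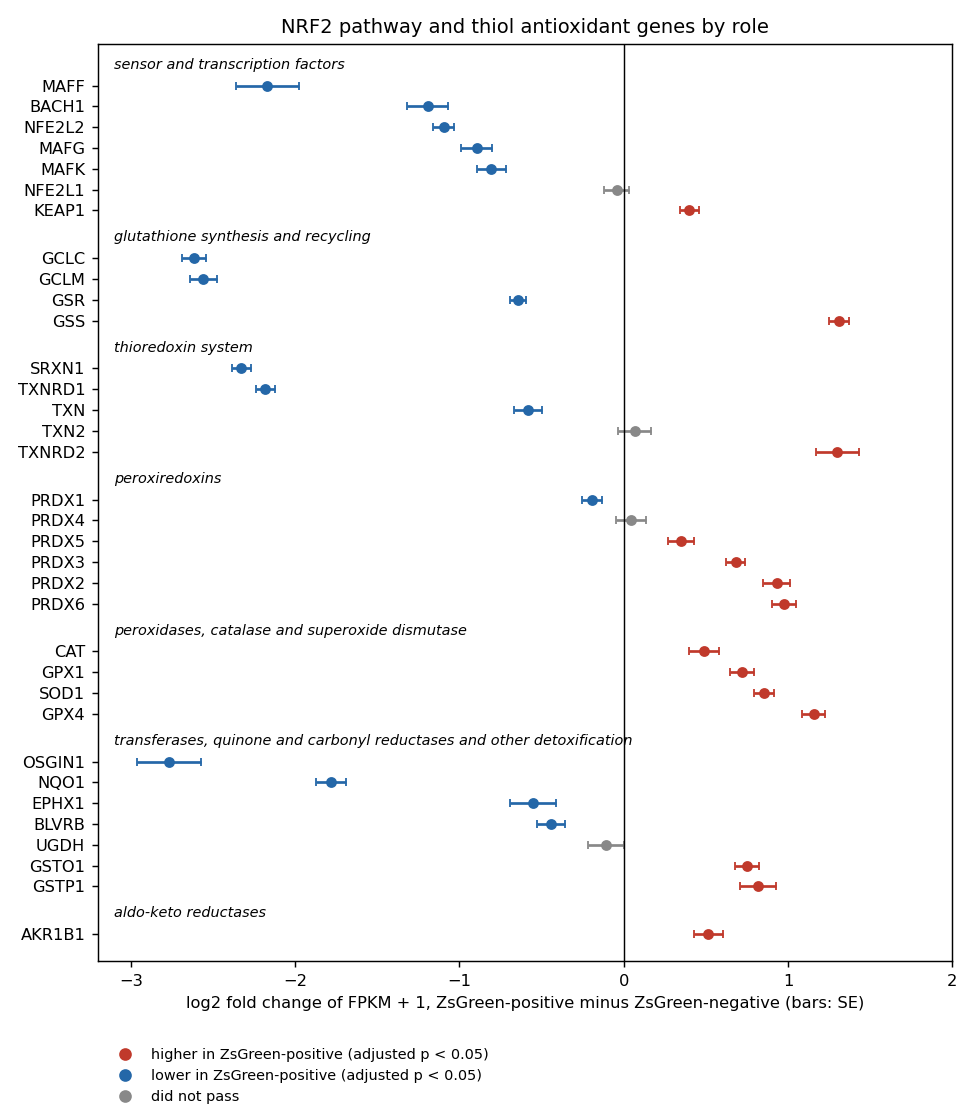
Log2 fold change of FPKM + 1, ZsGreen-positive minus ZsGreen-negative, for the 34 tested members by role, with SE bars; red points were higher, blue points lower and grey points did not pass. The lower members run from -0.19 for PRDX1 (call lost and value near 0 under rescaling) to -2.77 for OSGIN1, and the higher ones from 0.35 for PRDX5 (-0.050 with quantile normalisation) to 1.31 for GSS.

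**Figure D2:**
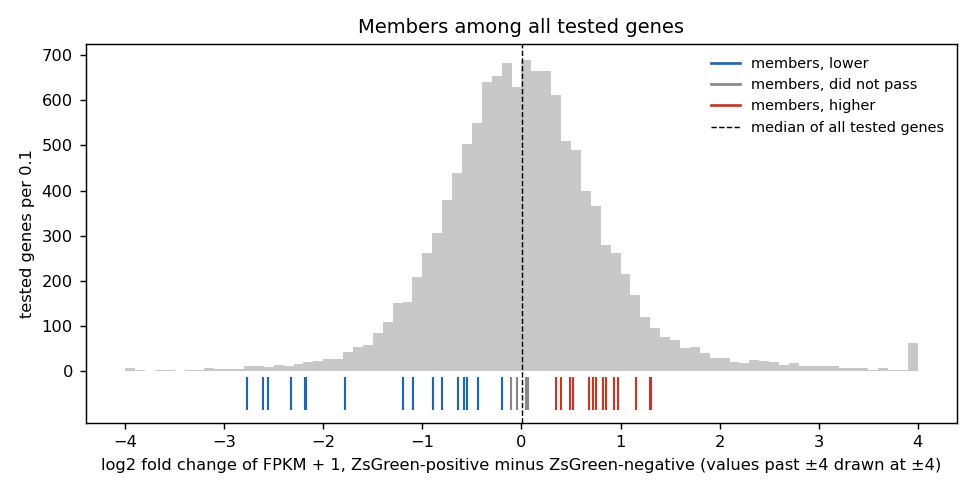
Histogram of the log2 fold changes of FPKM + 1, ZsGreen-positive minus ZsGreen-negative, of 12213 tested genes, with the 34 tested members as ticks under the axis and the median of all tested genes as a dashed line. The lowest member, OSGIN1 at -2.77, lies far into the left tail, while the highest, GSS at 1.31, lies within the right shoulder.

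The scale between libraries matters for the smaller changes. When each library was scaled to sum to 1000000, the median of all tested genes moved to 0.14, the members' median to 0.096, and calls of higher genes made up 62.1% of all calls, against 49.5% with the deposited values. Under that rescaling 15 members fell and 14 rose. That sum is mostly small RNA genes. With them left out of the sum, a setting chosen after seeing the data, the median of all tested genes was 0.16. In that setting 15 members fell and 15 rose. With quantile normalisation 16 fell and 13 rose. Some values moved by more than 1.5 times under quantile normalisation. The log2 fold change of PRDX3 was then 0.38, of SOD1 0.48, of GPX1 0.45 and of GSTP1 0.41. That of TXN was -0.97 and that of PRDX1 -0.52. Each of these still had a call in the same direction. The log2 fold change of BLVRB was -0.26 and that of EPHX1 -0.37 under rescaling to a sum of 1000000, also with a call. When replicate 1 alone stood for the ZsGreen-positive group, which leaves out the libraries that stood apart, 16 members were called lower and 15 higher, and 72.2% of all tested genes were called. In that fit the lone library is assumed to vary as little as the ZsGreen-negative libraries, which alone give the spread, so its calls are no measure of stability.

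Promoter sequences were taken from RefSeq (build GRCh38.p14), which held 48 promoter entries for 32 of the 40 members, each from 250 bases before to 50 after an annotated start. They were searched on both strands for TGACNNNGC, the core of the antioxidant response element, and for TGANTCAGC, a form bound by MAF and AP-1 proteins, which overlaps it where the N is C. TGACNNNGC was found in 13.3% of all promoters (16.1% of genes), and TGANTCAGC in 1.36% (1.66% of genes). Among members that fell, 4 of 13 with an entry held TGACNNNGC (GCLM, TXNRD1, MAFF and EPHX1), and among members that rose 3 of 11 did (KEAP1, GSTP1 and GSTO1). None of the 3 entered members that did not pass held it, and 2 of 5 that were not tested did (GPX2 and CBR1). TGANTCAGC was in the promoters of OSGIN1, which fell, and GSTP1, which rose. TGACNNNGC thus stood in promoters of members that moved either way, and a match is no proof of a site in use.

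The promoters of 3 members that fell are shown because GCLM, TXNRD1 and OSGIN1 held a match and were among the most reduced. GCLC, SRXN1 and NQO1, also among the most reduced, had promoter entries without a match to either motif. Sequence farther than 250 bases before the start was not searched. Letters run 5′ to 3′ on the gene's strand, and capitals mark the matches, which appear as the reverse complement of the motif where it lies on the opposite strand.
GCLM, chr1:93909381-93909680, minus strand, match starting 34 bases before the gene's start: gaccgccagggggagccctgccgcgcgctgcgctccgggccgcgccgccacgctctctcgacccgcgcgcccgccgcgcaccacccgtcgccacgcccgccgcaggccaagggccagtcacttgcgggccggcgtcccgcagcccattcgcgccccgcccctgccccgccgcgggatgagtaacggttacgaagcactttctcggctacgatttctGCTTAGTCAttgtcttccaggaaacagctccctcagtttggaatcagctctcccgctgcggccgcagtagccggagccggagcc
TXNRD1, chr12:104286782-104287081, plus strand, match starting 102 bases before the start: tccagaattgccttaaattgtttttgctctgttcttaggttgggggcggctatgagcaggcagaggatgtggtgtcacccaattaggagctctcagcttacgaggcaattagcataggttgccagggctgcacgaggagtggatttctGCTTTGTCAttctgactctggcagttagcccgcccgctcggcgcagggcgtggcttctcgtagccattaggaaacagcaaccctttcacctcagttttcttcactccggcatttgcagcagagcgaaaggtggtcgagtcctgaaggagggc
OSGIN1, chr16:83952990-83953289, plus strand, match to TGANTCAGC starting 99 bases before the start: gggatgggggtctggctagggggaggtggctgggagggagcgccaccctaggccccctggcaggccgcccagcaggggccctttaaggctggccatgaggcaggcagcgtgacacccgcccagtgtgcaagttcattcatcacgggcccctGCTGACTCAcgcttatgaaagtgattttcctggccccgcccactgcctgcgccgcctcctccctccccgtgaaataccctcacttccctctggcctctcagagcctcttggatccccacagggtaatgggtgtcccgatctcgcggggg

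The promoters of KEAP1 and GSTP1 are set beside these because both genes rose and carry the same cores. In KEAP1 the opposite-strand match reads GCTTAGTCA, the same letters as in GCLM.
KEAP1, chr19:10502722-10503021, minus strand, matches starting 54 and 31 bases before the start: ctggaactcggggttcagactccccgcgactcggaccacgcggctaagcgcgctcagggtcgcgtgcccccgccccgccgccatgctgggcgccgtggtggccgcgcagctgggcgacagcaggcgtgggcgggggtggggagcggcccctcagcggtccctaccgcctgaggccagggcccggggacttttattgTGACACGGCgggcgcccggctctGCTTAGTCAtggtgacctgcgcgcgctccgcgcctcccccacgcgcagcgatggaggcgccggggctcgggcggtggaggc
GSTP1, chr11:67583562-67583861, plus strand, match to both motifs starting 66 bases before the start: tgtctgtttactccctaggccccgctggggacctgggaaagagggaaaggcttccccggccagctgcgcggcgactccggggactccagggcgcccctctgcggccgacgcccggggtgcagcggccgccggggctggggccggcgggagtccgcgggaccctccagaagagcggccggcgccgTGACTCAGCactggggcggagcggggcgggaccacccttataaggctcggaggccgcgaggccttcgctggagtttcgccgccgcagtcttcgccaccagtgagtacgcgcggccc

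Another RefSeq promoter of TXNRD1 held matches starting 99 and 8 bases before its start. Shorter windows show the matches in the other members, in MAFF and EPHX1, which fell, in GSTO1, which rose, and in GPX2 and CBR1, which were not tested.
MAFF, chr22:38201856-38201896, plus strand: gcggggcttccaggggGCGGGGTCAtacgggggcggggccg
EPHX1, chr1:225825260-225825300, plus strand: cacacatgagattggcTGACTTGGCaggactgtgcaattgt
GSTO1, chr10:104254650-104254690, plus strand: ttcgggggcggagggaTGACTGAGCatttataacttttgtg
GSTO1, chr10:104254715-104254755, plus strand: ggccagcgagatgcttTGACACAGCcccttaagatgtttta
GPX2, chr14:64942843-64942883, minus strand: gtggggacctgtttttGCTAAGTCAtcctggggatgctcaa
CBR1, chr21:36069849-36069889, plus strand: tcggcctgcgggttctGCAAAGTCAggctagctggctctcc

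Of the 7 genes for the sensor and the transcription factors, 5 fell, 1 rose and 1 did not pass. This count and those of the other roles stand beside 30.0% of all tested genes called lower and 29.4% called higher. NFE2L2, which encodes NRF2, was at 23.0, 24.7 and 23.8 FPKM in ZsGreen-positive replicates 1 to 3, against 53.7, 51.6 and 51.0 FPKM in ZsGreen-negative replicates 1 to 3. Every ZsGreen-positive library was below every ZsGreen-negative one, and the log2 fold change was -1.10 ± 0.061 (limma adjusted p = 8.5e-06). KEAP1, the sensor that directs NRF2 to degradation, went the other way, with 41.0, 41.4 and 42.0 FPKM in ZsGreen-positive and 32.0, 30.2 and 31.3 FPKM in ZsGreen-negative libraries. The groups were apart by far more than their spread (log2 fold change 0.40 ± 0.059, limma adjusted p = 0.000831). Within each library, NFE2L2 was therefore below KEAP1 in all 3 ZsGreen-positive libraries (ratio of FPKM 0.563, 0.596 and 0.566) and above it in all 3 ZsGreen-negative libraries (1.68, 1.71 and 1.63). This ratio does not depend on the scaling between libraries. The difference of the log2 ratio was -1.496 by a two-sided exact permutation test (p = 0.1, the lowest value that 3 libraries per group allow; adjusted over 8 ratios, p = 0.133).

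BACH1, a repressor that competes with NRF2 for the same elements, was lower as well. Its values were 13.2, 16.3 and 19.2 FPKM in ZsGreen-positive and 37.6, 39.1 and 37.3 FPKM in ZsGreen-negative libraries (log2 fold change -1.19 ± 0.13, limma adjusted p = 0.000169). NFE2L2 and BACH1 were lower by a similar amount. Their log2 ratio averaged 0.54 ± 0.24 in ZsGreen-positive and 0.44 ± 0.056 in ZsGreen-negative libraries (SD, n = 3 each), and the groups overlapped (exact permutation test, two-sided, p = 0.6). The spread of the ZsGreen-positive libraries limits what this ratio can show, and without ZsGreen-positive replicate 1 the difference was -0.013 in place of 0.097.

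The small MAF proteins lack an activation domain and bind DNA together with NRF2, NFE2L1 or BACH1. MAFF, the most reduced of them, was at 9.86, 7.75 and 14.6 FPKM in ZsGreen-positive and 51.6, 51.8 and 47.6 FPKM in ZsGreen-negative libraries (log2 fold change -2.17 ± 0.19, limma adjusted p = 6.95e-05). ZsGreen-positive replicate 3 was the highest of its group and still far below the ZsGreen-negative libraries. MAFG, itself a target of NRF2, averaged 8.54 ± 0.893 FPKM in ZsGreen-positive and 16.7 ± 0.345 FPKM in ZsGreen-negative libraries, and MAFK 9.44 ± 0.800 and 17.2 ± 0.766 FPKM (SD, n = 3 each). MAFG had a log2 fold change of -0.90 ± 0.094 (limma adjusted p = 0.000164) and MAFK one of -0.81 ± 0.090 (limma adjusted p = 0.000214). In the annotation, 24.0% of the exon bases of MAFK are also exon of TMEM184A on the opposite strand, and how the authors treated strand is not given in the sources used here. The 3 genes summed to 26.8 to 31.9 FPKM in ZsGreen-positive and 82.4 to 85.9 FPKM in ZsGreen-negative libraries. MAFF supplied 36.9% of that sum in ZsGreen-positive and 59.7% in ZsGreen-negative libraries, so the 3 genes were more even in the ZsGreen-positive group.

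NFE2L1, a related factor anchored in the endoplasmic reticulum that controls proteasome genes, did not pass. It was at 43.6, 44.6 and 51.5 FPKM in ZsGreen-positive and 47.9, 47.9 and 47.9 FPKM in ZsGreen-negative libraries, with overlapping groups (log2 fold change -0.043 ± 0.076, limma adjusted p = 0.651). When replicate 1 alone stood for the ZsGreen-positive group its log2 fold change was -0.13, and the sign changed when libraries were rescaled (0.13) or without that replicate (0.0015).

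**Figure D3:**
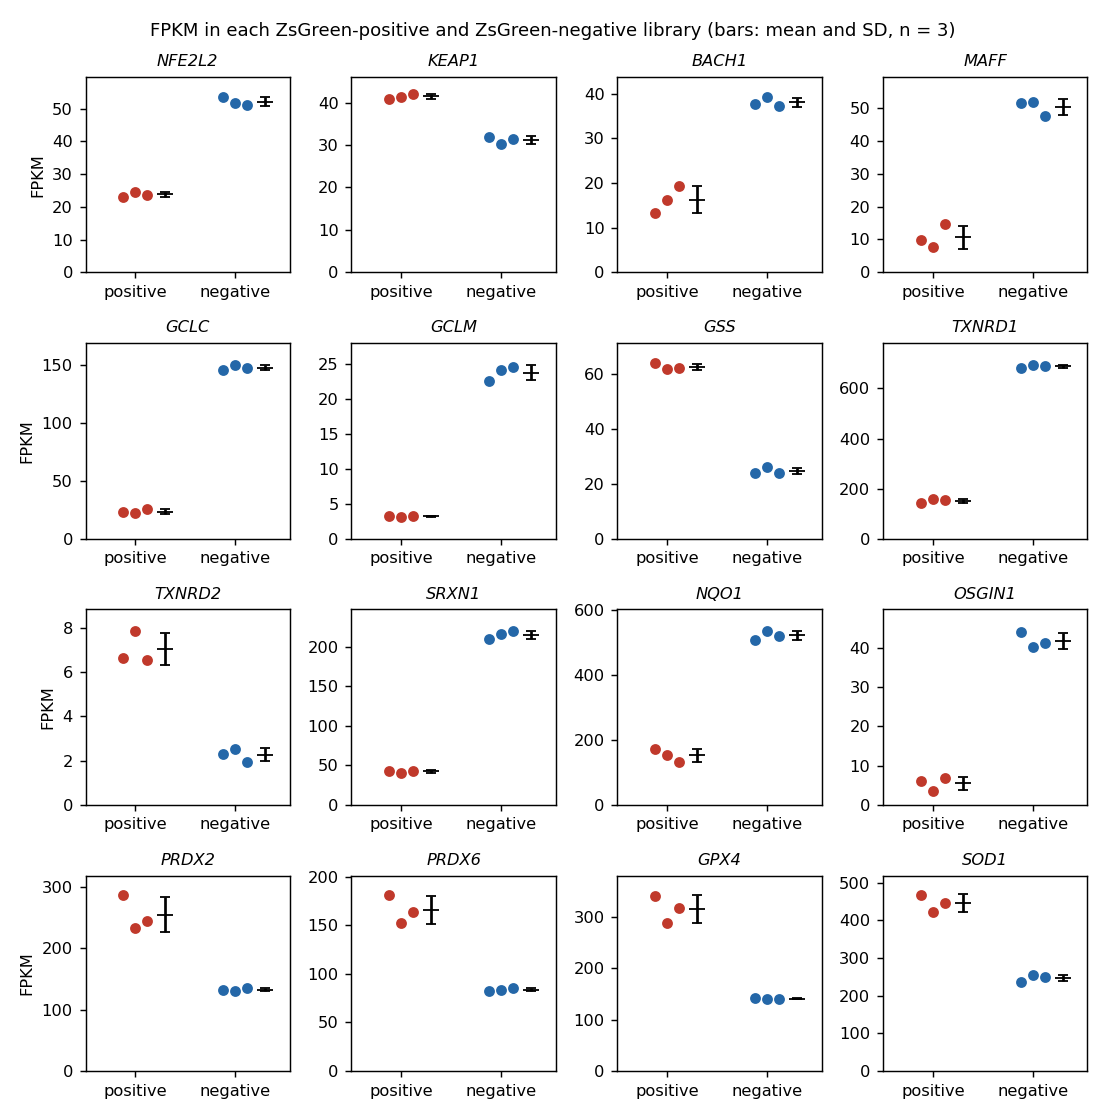
FPKM of 16 members in each library, ZsGreen-positive left (red) and ZsGreen-negative right (blue), with mean and SD (n = 3) beside the points; each panel has its own axis from 0. The groups do not overlap in any panel, with GCLC at 21.7 to 25.8 FPKM in ZsGreen-positive and 146 to 149.8 FPKM in ZsGreen-negative libraries, and GPX4 at 287 to 341 and 139 to 141 FPKM in the same order.

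Among the 4 genes of glutathione synthesis and recycling, 3 fell and 1 rose. GCLC encodes the catalytic subunit of glutamate-cysteine ligase, the rate-limiting enzyme of glutathione synthesis, and GCLM its modifier subunit. GCLC was at 22.6, 21.7 and 25.8 FPKM in ZsGreen-positive and 146, 149.8 and 147 FPKM in ZsGreen-negative libraries. GCLM was at 3.20, 3.11 and 3.25 FPKM in ZsGreen-positive and 22.5, 24.1 and 24.5 FPKM in ZsGreen-negative libraries. Both subunits fell, with log2 fold changes of -2.61 ± 0.074 for GCLC (limma adjusted p = 5.88e-07) and -2.56 ± 0.083 for GCLM (limma adjusted p = 1.08e-06). The ratio of GCLC to GCLM was 7.05, 7.00 and 7.92 in ZsGreen-positive and 6.50, 6.22 and 6.02 in ZsGreen-negative libraries, slightly higher in all 3 ZsGreen-positive ones. On the log2(FPKM + 1) scale this ratio differed by -0.056 (exact permutation test, two-sided, p = 0.5), by 0.19 with a pseudocount of 0.1 (p = 0.1) and by -0.62 with a pseudocount of 5 (p = 0.1). Its sign and size thus depend on the pseudocount, as GCLM was low in ZsGreen-positive libraries. Ranked from the lowest log2 fold change, GCLC was 44 and GCLM 49 of the 12213 tested genes.

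GSS, glutathione synthetase, catalyses the step after glutamate-cysteine ligase and rose. Its log2 fold change was the highest of the members on the log2(FPKM + 1) scale, but the fold of mean FPKM was 2.54 for GSS and 3.11 for TXNRD2. It was at 64.0, 62.0 and 62.3 FPKM in ZsGreen-positive and 24.0, 26.1 and 24.1 FPKM in ZsGreen-negative libraries. All ZsGreen-positive libraries were more than 2-fold above all ZsGreen-negative ones (log2 fold change 1.31 ± 0.063, limma adjusted p = 4.26e-06). The consecutive enzymes of the pathway thus differed in opposite directions. GSR, glutathione reductase, which returns oxidised glutathione to its reduced form, fell to 95.1, 96.3 and 95.4 FPKM in ZsGreen-positive libraries, against 151, 149 and 150.2 FPKM in ZsGreen-negative ones (log2 fold change -0.64 ± 0.048, limma adjusted p = 3.11e-05).

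Of the 5 members of the thioredoxin system, TXN, TXNRD1 and SRXN1 of the cytosol fell, while TXN2 and TXNRD2 of the mitochondria did not. Among thioredoxin-like genes outside the members, TXNRD3 (log2 fold change 0.98), NXN (0.88) and TXNDC17 (0.64) rose, and TXNL1 (-0.26) did not pass. The contrast between compartments thus covers these 5 members alone. TXNRD1, the cytosolic thioredoxin reductase, was at 142, 159 and 153 FPKM in ZsGreen-positive and 681, 694 and 689.6 FPKM in ZsGreen-negative libraries (log2 fold change -2.18 ± 0.059, limma adjusted p = 4.72e-07). TXNRD2, its mitochondrial counterpart, was at 6.66, 7.88 and 6.57 FPKM in ZsGreen-positive and 2.31, 2.53 and 1.94 FPKM in ZsGreen-negative libraries (log2 fold change 1.30 ± 0.13, limma adjusted p = 0.000121; 1.599 with a pseudocount of 0.1 and 0.73 with one of 5). TXNRD1 remained the more abundant per length in every library. Its FPKM was 20.1 to 23.2 times that of TXNRD2 in ZsGreen-positive and 274 to 356 times in ZsGreen-negative libraries. That log2 ratio differed by -3.48 between the groups, the largest of the 8 ratios in size (exact permutation test, two-sided, p = 0.1; adjusted p = 0.133).

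TXN, cytosolic thioredoxin, which passes electrons to peroxiredoxins and ribonucleotide reductase, was lower by a smaller amount. It was at 346, 280.4 and 288 FPKM in ZsGreen-positive and 455, 445 and 462 FPKM in ZsGreen-negative libraries (log2 fold change -0.58 ± 0.086, limma adjusted p = 0.00085). TXN2, mitochondrial thioredoxin, did not pass, with 30.7, 25.1 and 28.9 FPKM in ZsGreen-positive and 24.8, 29.6 and 26.2 FPKM in ZsGreen-negative libraries and overlapping groups (log2 fold change 0.068 ± 0.10, limma adjusted p = 0.589). Under rescaling to a sum of 1000000 TXN2 was at 0.23 (limma adjusted p = 0.0544). With small RNA genes left out of that sum it was at 0.24 and called higher (limma adjusted p = 0.0478). Within libraries the log2 ratio of TXN to TXN2 differed by -0.65 between the groups, without overlap (exact permutation test, two-sided, p = 0.1). SRXN1, sulfiredoxin, repairs peroxiredoxins whose active cysteine has been overoxidised. It was at 43.2, 39.9 and 43.1 FPKM in ZsGreen-positive and 210.3, 216 and 219.7 FPKM in ZsGreen-negative libraries (log2 fold change -2.33 ± 0.057, limma adjusted p = 3.69e-07).

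The peroxiredoxins, which reduce hydrogen peroxide through a reactive cysteine, did not follow SRXN1. PRDX2, PRDX3, PRDX5 and PRDX6 rose (PRDX5 not after quantile normalisation), PRDX1 fell slightly and PRDX4 did not pass. PRDX6, which uses glutathione in place of thioredoxin, was at 182, 152 and 164 FPKM in ZsGreen-positive and 82.9, 83.5 and 85.2 FPKM in ZsGreen-negative libraries (log2 fold change 0.97 ± 0.073, limma adjusted p = 3.13e-05). PRDX2, a cytosolic peroxiredoxin, was at 287, 233 and 244 FPKM in ZsGreen-positive and 132, 130.1 and 135 FPKM in ZsGreen-negative libraries (log2 fold change 0.93 ± 0.083, limma adjusted p = 6.95e-05). PRDX3, the mitochondrial form, was at 233, 248 and 261 FPKM in ZsGreen-positive and 153, 152 and 156 FPKM in ZsGreen-negative libraries (log2 fold change 0.68 ± 0.059, limma adjusted p = 6.06e-05). These 3 rises kept their direction and call under all 17 alternatives tried, with log2 fold changes of 0.62 to 1.11 for PRDX2, 0.38 to 0.86 for PRDX3 and 0.76 to 1.15 for PRDX6.

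PRDX5, found in mitochondria, peroxisomes and the cytosol, was higher by less, at 364, 311 and 377 FPKM in ZsGreen-positive and 273, 281 and 269 FPKM in ZsGreen-negative libraries (log2 fold change 0.35 ± 0.080, limma adjusted p = 0.00729), and its value was -0.050 after quantile normalisation (limma adjusted p = 0.515). PRDX4, the form of the endoplasmic reticulum, was at 139, 134 and 110.2 FPKM in ZsGreen-positive and 119.5, 127 and 123 FPKM in ZsGreen-negative libraries, with overlapping groups (log2 fold change 0.046 ± 0.092, limma adjusted p = 0.69). PRDX1, the most abundant member of all per length, was at 1134, 1043 and 1121 FPKM in ZsGreen-positive and 1218, 1249.6 and 1297 FPKM in ZsGreen-negative libraries. Its small fall on the deposited scale (log2 fold change -0.19 ± 0.061, limma adjusted p = 0.0298) held under 9 of 17 alternatives (adjusted p 0.000942 to 0.868). The call was lost without ZsGreen-negative replicate 1 (adjusted p = 0.0677), 2 (0.102) or 3 (0.134), and the value was -0.013 under rescaling to a sum of 1000000. With quantile normalisation the value of PRDX1 was -0.52, with a call. In the annotation, 30.3% of its exon bases are also exon of the much less abundant MMACHC on the opposite strand. PRDX1 was 3.96 to 4.60 times as abundant as PRDX2 in ZsGreen-positive and 9.25 to 9.60 times in ZsGreen-negative libraries (exact permutation test of the log2 ratio, two-sided, p = 0.1). Summed, the 6 genes gave 2245 ± 112 FPKM in ZsGreen-positive and 2022 ± 43.1 FPKM in ZsGreen-negative libraries (SD, n = 3 each). PRDX1 made up 49.0% of that sum in ZsGreen-positive and 62.0% in ZsGreen-negative libraries.

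The glutathione peroxidases, catalase and superoxide dismutase remove peroxides and superoxide directly, and all 4 tested genes of this role rose. Of 3 tested related genes outside the members, 1 rose (CCS), 1 did not pass (SOD2) and 1 fell (GPX8, log2 fold change -0.36 ± 0.0965, limma adjusted p = 0.0137). GPX4, a selenoprotein that reduces lipid hydroperoxides in membranes and restrains ferroptosis, was at 341, 287 and 317 FPKM in ZsGreen-positive and 141, 139 and 140.4 FPKM in ZsGreen-negative libraries (log2 fold change 1.16 ± 0.071, limma adjusted p = 1.25e-05). SOD1, the copper-zinc superoxide dismutase of the cytosol, was at 468, 422 and 446 FPKM in ZsGreen-positive and 237, 254 and 249 FPKM in ZsGreen-negative libraries (log2 fold change 0.85 ± 0.061, limma adjusted p = 2.5e-05). GPX1, the main cytosolic glutathione peroxidase, was at 232, 197 and 225 FPKM in ZsGreen-positive and 129, 133 and 132 FPKM in ZsGreen-negative libraries (log2 fold change 0.72 ± 0.072, limma adjusted p = 0.000126). The FPKM of GPX1 was 0.680 to 0.710 of that of GPX4 in ZsGreen-positive and 0.912 to 0.953 in ZsGreen-negative libraries (exact permutation test of the log2 ratio, two-sided, p = 0.1). CAT, peroxisomal catalase, was at 38.1, 47.4 and 42.6 FPKM in ZsGreen-positive and 28.6, 31.2 and 30.2 FPKM in ZsGreen-negative libraries (log2 fold change 0.49 ± 0.090, limma adjusted p = 0.00256). GPX2, the gastrointestinal glutathione peroxidase and a known NRF2 target, was hardly detected, with 0.581, 1.05 and 0 FPKM in ZsGreen-positive and 0.309, 0.108 and 0.424 FPKM in ZsGreen-negative libraries, and was not tested.

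Of the 8 transferases, reductases and other detoxification genes, 4 fell, 2 rose, 1 did not pass and 1 was not tested. NQO1, the quinone reductase most often used as a readout of NRF2, was at 170.1, 153 and 132 FPKM in ZsGreen-positive and 507, 535 and 519 FPKM in ZsGreen-negative libraries (log2 fold change -1.78 ± 0.093, limma adjusted p = 6.08e-06). OSGIN1, an oxidative stress-induced growth inhibitor, had the lowest log2 fold change of all members, with 5.97, 3.54 and 6.87 FPKM in ZsGreen-positive and 44.1, 40.3 and 41.2 FPKM in ZsGreen-negative libraries (log2 fold change -2.77 ± 0.19, limma adjusted p = 2.26e-05). Ranked from the lowest, it was 30 of the tested genes. BLVRB, biliverdin reductase B, averaged 67.5 ± 6.99 FPKM in ZsGreen-positive and 91.9 ± 4.60 FPKM in ZsGreen-negative libraries (SD, n = 3 each; log2 fold change -0.44 ± 0.087, limma adjusted p = 0.00358). EPHX1, the microsomal epoxide hydrolase, was at 11.043, 7.65 and 9.11 FPKM in ZsGreen-positive and 15.5, 12.8 and 13.5 FPKM in ZsGreen-negative libraries (log2 fold change -0.55 ± 0.14, limma adjusted p = 0.0109). When replicate 1 alone stood for the ZsGreen-positive group, EPHX1 was at -0.31 and had no call (limma adjusted p = 0.071, with the spread from the ZsGreen-negative libraries alone), the only alternative of 17 without one. In the annotation, 1.36% of the exon bases of EPHX1 are shared with TMEM63A, and 1.19% of those of NFE2L2 with AGPS, both on the opposite strand.

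The glutathione transferases of this role went up. GSTP1, the pi-class transferase that is abundant in many carcinomas, was at 672, 505 and 521 FPKM in ZsGreen-positive and 311, 322 and 320.2 FPKM in ZsGreen-negative libraries (log2 fold change 0.82 ± 0.11, limma adjusted p = 0.000503). GSTO1, an omega-class transferase with reductase activity, was at 142, 142 and 129.7 FPKM in ZsGreen-positive and 76.7, 80.2 and 87.9 FPKM in ZsGreen-negative libraries (log2 fold change 0.75 ± 0.072, limma adjusted p = 0.0001). UGDH, which makes the UDP-glucuronate used in glucuronidation, was at 18.1, 17.995 and 23.6 FPKM in ZsGreen-positive and 20.8, 21.6 and 21.7 FPKM in ZsGreen-negative libraries and did not pass (log2 fold change -0.11 ± 0.11, limma adjusted p = 0.435). ZsGreen-positive replicate 3 alone stood above the ZsGreen-negative libraries, and without it UGDH was called lower (-0.23, limma adjusted p = 0.0205); under rescaling its value was 0.061. CBR1, a carbonyl reductase, was listed at 0 in all 6 libraries, as were the widely expressed genes TXNIP and NNT, so that a failed estimate cannot be told apart from absence.

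Of the 5 aldo-keto reductases, only AKR1B1 reached the filter. AKR1B1, aldose reductase, was at 17.9, 18.2 and 21.4 FPKM in ZsGreen-positive and 12.9, 13.2 and 13.1 FPKM in ZsGreen-negative libraries, and it rose (log2 fold change 0.52 ± 0.089, limma adjusted p = 0.00182). AKR1B10, which reduces retinal and lipid aldehydes and is a known NRF2 target in human carcinoma cells, was very low, with 0.107, 0.671 and 0 FPKM in ZsGreen-positive and 1.58, 1.32 and 0.952 FPKM in ZsGreen-negative libraries. All 3 ZsGreen-positive values were below all 3 ZsGreen-negative ones. On the FPKM + 1 scale the log2 ratio of AKR1B10 to AKR1B1 was lower in ZsGreen-positive libraries (difference -1.40, exact permutation test, two-sided, p = 0.1; adjusted p = 0.133). The size of that difference is set by the pseudocount, with -2.98 for 0.1 and -0.67 for 5. The ketosteroid reductases AKR1C1, AKR1C2 and AKR1C3, among the genes most responsive to NRF2 in human cells, were hardly detected in either group. AKR1C1 was at 0.0632, 0.304 and 1.02 FPKM in ZsGreen-positive and 0.389, 0.327 and 0 FPKM in ZsGreen-negative libraries. AKR1C2 was at 0.0922, 0.948 and 0 FPKM in ZsGreen-positive and 0.401, 0.0885 and 0.232 FPKM in ZsGreen-negative libraries. AKR1C3 was at 2.07, 0.499 and 0 FPKM in ZsGreen-positive and 0.183, 0.288 and 0.283 FPKM in ZsGreen-negative libraries. The longest annotated transcripts of AKR1C1 and AKR1C2 were 97.1% identical over their aligned stretch and those of AKR1C1 and AKR1C3 87.1%, so that values of these genes taken singly are uncertain. The mean of each of these 3 genes over the 6 libraries was under 1 FPKM, and no difference was tested.

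**Figure D4:**
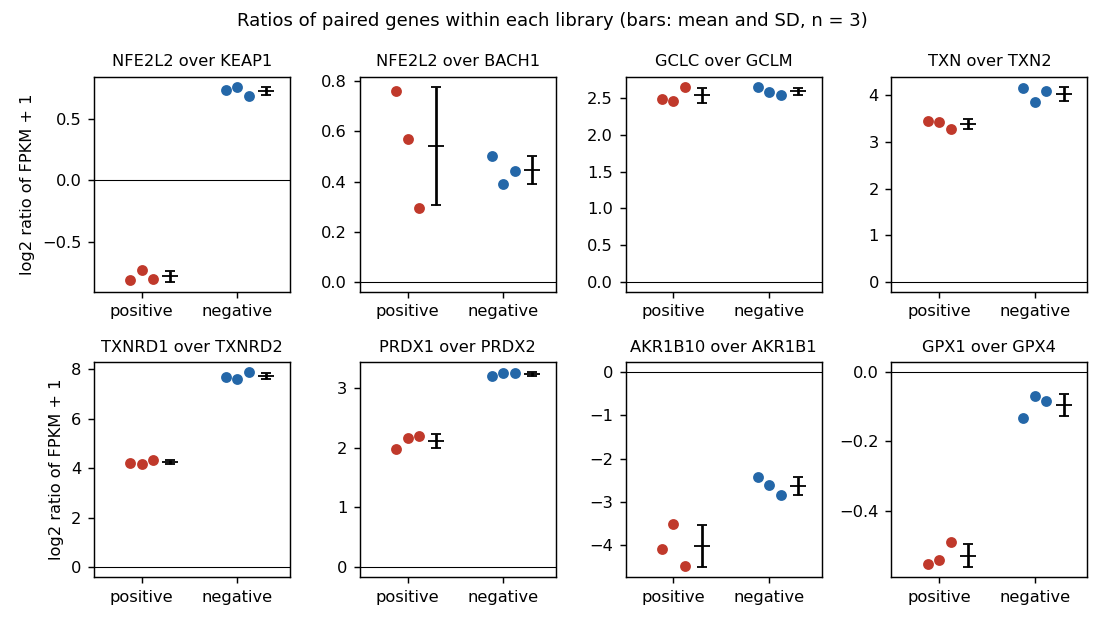
Log2 ratio of FPKM + 1 of 8 pairs of members within each library, ZsGreen-positive left (red) and ZsGreen-negative right (blue), with mean and SD (n = 3) and a line at a ratio of 1 to 1. TXNRD1 over TXNRD2 differs most (-3.48), NFE2L2 over KEAP1 changes sign between the groups, and NFE2L2 over BACH1 and GCLC over GCLM overlap.

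Other genes of the pathway were read from a list of 80, of which 67 were tested. Of these, 19 fell, 22 rose and 26 did not pass, with a median log2 fold change of 0.11. These shares, 28.4% lower and 32.8% higher, are close to those of all tested genes, 30.0% and 29.4%. The counts differed by role. In haem and iron handling 3 of 5 fell and 0 rose, and in NADPH supply 5 of 6 tested genes fell and 1 rose. Among cystine and drug transporters 3 of 6 fell and 2 rose. Of 16 tested further glutathione transferases and enzymes 0 fell and 8 rose, GSTA4 among them.

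HMOX1, haem oxygenase 1, which is repressed by BACH1 and induced by NRF2, had the largest fall in that list, to 7.43, 9.23 and 12.5 FPKM in ZsGreen-positive libraries, against 61.7, 65.6 and 71.2 FPKM in ZsGreen-negative libraries (log2 fold change -2.67 ± 0.16, limma adjusted p = 1.21e-05). SQSTM1, the autophagy receptor p62, which can displace NRF2 from KEAP1, was at 120.0, 112 and 112 FPKM in ZsGreen-positive and 651, 663 and 649 FPKM in ZsGreen-negative libraries (log2 fold change -2.50 ± 0.053, limma adjusted p = 1.68e-07). TRIM16L, which ranked after it, was at 5.67, 2.89 and 3.22 FPKM in ZsGreen-positive and 24.4, 24.6 and 22.3 FPKM in ZsGreen-negative libraries (log2 fold change -2.37 ± 0.20, limma adjusted p = 5.23e-05). No values of the groups overlapped for these 3 genes. FTH1, the heavy chain of ferritin, was at 229.7, 183 and 161 FPKM in ZsGreen-positive and 1001, 979.7 and 954 FPKM in ZsGreen-negative libraries (log2 fold change -2.36 ± 0.12, limma adjusted p = 5.7e-06). ME1, the malic enzyme that makes NADPH in the cytosol, was at 11.9, 10.6 and 11.3 FPKM in ZsGreen-positive and 51.1, 51.3 and 53.4 FPKM in ZsGreen-negative libraries (log2 fold change -2.11 ± 0.070, limma adjusted p = 1.15e-06). SLC7A11, which imports the cystine needed for glutathione, averaged 21.2 ± 3.60 FPKM in ZsGreen-positive and 76.9 ± 0.604 FPKM in ZsGreen-negative libraries (SD, n = 3 each; log2 fold change -1.82 ± 0.12, limma adjusted p = 1.68e-05).

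The 4 largest rises of that list were those of GGCT, CCS, GSTA4 and AKR7A2. GGCT, gamma-glutamylcyclotransferase of glutathione breakdown, was at 67.2, 63.0 and 68.1 FPKM in ZsGreen-positive and 20.4, 22.4 and 20.7 FPKM in ZsGreen-negative libraries (log2 fold change 1.60 ± 0.068, limma adjusted p = 2.78e-06). CCS, the copper chaperone that loads SOD1, was at 23.5, 22.2 and 19.3 FPKM in ZsGreen-positive and 6.03, 5.64 and 8.14 FPKM in ZsGreen-negative libraries (log2 fold change 1.58 ± 0.14, limma adjusted p = 7.06e-05). GSTA4, a transferase for lipid aldehydes, was low, at 2.35, 1.57 and 4.21 FPKM in ZsGreen-positive and 0.241, 0.507 and 0.166 FPKM in ZsGreen-negative libraries (log2 fold change 1.45 ± 0.28, limma adjusted p = 0.00322). It reached the mean of 1 FPKM through its ZsGreen-positive values alone, so it had to differ to be tested, and its place among the largest rises supports nothing. AKR7A2, an aldehyde reductase, was at 29.8, 30.0 and 28.0 FPKM in ZsGreen-positive and 12.9, 12.3 and 11.8 FPKM in ZsGreen-negative libraries (log2 fold change 1.18 ± 0.072, limma adjusted p = 1.22e-05). Besides KEAP1, its partner CUL3, the scaffold of the ubiquitin ligase, was at 10.982, 11.2 and 12.1 FPKM in ZsGreen-positive and 16.7, 16.6 and 16.5 FPKM in ZsGreen-negative libraries (log2 fold change -0.50 ± 0.076, limma adjusted p = 0.000961). The sensor and its ligase scaffold thus differed in opposite directions.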

How the data were processed

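The authors deposited 1 table of FPKM values per library, per the file headers. Per the labels' protocols, RNA was isolated with TRIzol and a miRNeasy kit, and a stranded mRNA kit was used. The submitters' processing notes list Cuffdiff 2.2.1, TopHat2 2.1.1, SAMtools 0.1.18, Bowtie2 2.2.8 and build hg19. Not given in the sources used here are the settings, annotation, scaling between libraries and use of strand. FPKM divides by length and total, so abundant RNAs shift other values, and a log2 change on log2(FPKM + 1) understates that of low genes. An exact 0 can be a failed estimate.

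Group differences came from limma 3.58.1 under R 4.3.3 (two-sided, eBayes with a trend on the mean; 4 residual and 3.22 prior degrees of freedom) on all 6 libraries, keeping genes with a mean of at least 1 FPKM, with Benjamini-Hochberg adjustment over 12213 genes. The step was also run on simulated data that gave both groups the spread of the ZsGreen-negative libraries. That run therefore says nothing on a wider spread among ZsGreen-positive libraries. Ratios within libraries used exact permutation tests (SciPy 1.17.1), adjusted over 8 ratios. Depth came from the most frequent small product of FPKM and length less 175 nt, over 2137 genes with 1 transcript of at least 1000 nt in GENCODE, and counts fragments after any scaling by the authors. Exon overlap and transcript identity used GENCODE 29 (GRCh38), with no coordinates set beside hg19; promoters came from RefSeq. The members and lists were chosen with earlier results of these data known. All 40 members are accounted for; those with the largest change in each role, and all that rose, are given in full, as are the 4 largest changes each way of the pathway list. SLC7A11, ME1, CUL3 and GPX8 were added after their values were seen. Same-numbered libraries did not deviate together (correlations across genes -0.0301 to -0.0209), so the numbers were not taken as pairs.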

Additional observations from a re-analysis of the deposited data

How the results depend on the processing

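Of the 30 members with a call, 27 kept direction and call under every alternative that gave them a value (17 each, 16 for TXNRD2, which is below 5 FPKM), and PRDX1, PRDX5 and EPHX1 did not (EPHX1 only in the fit with 1 ZsGreen-positive library, whose spread comes from the ZsGreen-negative libraries alone). Members called lower numbered 15 to 17 and members called higher 13 to 15 over the 17 alternatives, and genes called in all 5939 to 8817. With the replicate block, which did not rest on shared cultures, 6915 genes were called in all, and 15 members fell and 14 rose; the member lost was PRDX1 (adjusted p = 0.0858). Among members without a call, and PRDX5, signs changed as follows. NFE2L1 was at 0.13 under both rescalings to a sum of 1000000 and between -0.12 and 0.0015 when 1 replicate was left out (highest without ZsGreen-positive replicate 1). UGDH was at 0.061 under rescaling and at 0.062 under rescaling without small RNAs. PRDX4 was at -0.17 with quantile normalisation and between -0.018 and 0.15 when 1 replicate was left out (lowest without ZsGreen-positive replicate 1), and PRDX5 at -0.050 with quantile normalisation. The ratio of GCLC to GCLM differed by 0.19 with a pseudocount of 0.1 and by -0.62 with one of 5, and that of NFE2L2 to BACH1 by -0.013 to 0.22 when 1 replicate was left out (lowest without ZsGreen-positive replicate 1). The cause of these changes was not tested. Rescaling without small RNAs was chosen after seeing the data. At the estimated depth, 1 FPKM of a 2 kb transcript is 20.3 to 26.2 fragments, so GPX2, AKR1B10 and the AKR1C genes rest on few fragments.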

Other observations

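Among glutaredoxins and thioredoxin-like proteins, which handle glutathionylated and other oxidised proteins, 4 of 8 tested genes rose and 1 fell. Over all tested genes, 29.4% were called higher and 30.0% lower. GLRX, the cytosolic glutaredoxin, was at 30.6, 19.5 and 25.4 FPKM in ZsGreen-positive and 44.7, 47.6 and 45.5 FPKM in ZsGreen-negative libraries (log2 fold change -0.87 ± 0.15, limma adjusted p = 0.0017). GLRX3, an iron-sulfur glutaredoxin, was at 43.3, 30.7 and 33.7 FPKM in ZsGreen-positive and 20.0, 22.6 and 20.0 FPKM in ZsGreen-negative libraries (log2 fold change 0.74 ± 0.13, limma adjusted p = 0.00195). Of 7 tested methionine sulfoxide reductases and sestrins, 1 rose and 0 fell. MSRB1, which rose, was low and had overlapping groups (log2 fold change 0.70 ± 0.26, limma adjusted p = 0.0481). SOD2, the mitochondrial superoxide dismutase, was at 78.3, 80.0 and 56.7 FPKM in ZsGreen-positive and 65.7, 62.8 and 64.4 FPKM in ZsGreen-negative libraries, with overlapping groups (log2 fold change 0.14 ± 0.13, limma adjusted p = 0.386). These genes were chosen for their role after the values were seen.

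In the supply of NADPH, the transaldolase gene TALDO1 was the only tested one of 6 that rose. It was at 134, 129 and 126 FPKM in ZsGreen-positive and 60.9, 64.7 and 58.0 FPKM in ZsGreen-negative libraries (log2 fold change 1.07 ± 0.062, limma adjusted p = 9.53e-06). TKT, transketolase of the same branch of the pentose phosphate pathway, was at 279, 252 and 252 FPKM in ZsGreen-positive and 435, 425 and 438 FPKM in ZsGreen-negative libraries (log2 fold change -0.73 ± 0.060, limma adjusted p = 4.78e-05). The neighbouring enzymes thus differed in opposite directions.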
